A study of Mus musculus with 9 samples.

Results

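Copying a genome takes a set of proteins that act after replication origins have been licensed: the helicase at the fork, the polymerases, the sliding clamp and its loader, the enzymes that make deoxynucleotides, and the proteins that rebuild chromatin behind the fork. The genes described here are 38 such DNA synthesis and S-phase genes of the mouse, and their transcripts were compared in embryonic blood of 3 Cbfb genotypes. A gene was represented by the probe set that the platform annotation assigns to it alone, and where a gene had several, by the one with the highest mean over the 9 arrays. In this way 37 of the 38 genes were measured, out of 18193 genes measured by such a probe set, and Chaf1a was not analysed here because no probe set was assigned to it alone.

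The blood came from embryos at E12.5 on a mixed C57BL6/129SvEv background, obtained by intercrossing Cbfb+/ΔC95 mice. The homozygous embryos were CbfbΔC95/ΔC95, the heterozygous embryos were Cbfb+/ΔC95, and the wild-type embryos were Cbfb+/+. Cbfb encodes the DNA-non-binding partner of the RUNX transcription factors, and ΔC95 is a knock-in allele that the labels name without describing it further. Each RNA came from the pooled peripheral blood of embryos sharing a genotype, 8 to 10 of them, so no value belongs to a single embryo. Each genotype was measured on 3 Affymetrix whole-genome mouse expression arrays. Nothing in the labels tells if each of the 3 arrays had its own pool of embryos, so p-values measure the spread between arrays, which may be technical. The number of arrays limits the precision, and signal over background is unknown here.

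In S phase the GINS complex and CDC45 join the loaded MCM ring to form the replicative helicase, the primase that belongs to polymerase alpha starts each strand, and polymerases delta and epsilon extend it while held to DNA by the PCNA ring. Transcription of many of these genes is driven by E2F factors as cells commit to a division. Most cells in the circulation at this stage are primitive erythroblasts from the yolk sac, which go on dividing in the blood while they mature.

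Arrays of a genotype correlated at r of 0.996 to 0.998 over all probe sets that are not controls, and arrays of different genotypes at 0.987 to 0.995. The single probe set of Cbfb averaged 5.10 ± 0.16 in homozygous, 5.77 ± 0.04 in heterozygous and 6.01 ± 0.03 in wild-type blood (SD, n = 3 each), all on the deposited log2 scale. Whether this probe set lies within the altered part of the gene is not known here. Of the 8 erythroid markers measured, 1 was called higher and 2 lower in homozygous blood, and 2 lower in heterozygous blood, each against wild type. The embryonic globin Hbb-bh1, near the top of the scale, averaged 14.42, 14.38 and 14.37 in homozygous, heterozygous and wild-type blood, and Epb42, a membrane skeleton gene called lower in both mutant genotypes, averaged 8.48, 8.77 and 9.10. Other blood cell types differed by genotype. At an adjusted p under 0.05 in limma, macrophage markers were lower than in wild type for 11 of 12 in homozygous and 4 of 12 in heterozygous blood, and their summed linear level lay at 364 to 377 in homozygous, 1663 to 1697 in heterozygous and 2164 to 2197 in wild-type arrays. Megakaryocyte and platelet markers summed to 511 to 566 in homozygous, 1704 to 1767 in heterozygous and 1382 to 1406 in wild-type arrays, with 8 of 9 lower in homozygous blood and 1 of 9 higher in heterozygous blood. Over all genes, 10.7% were higher and 14.9% lower in homozygous blood, and 4.79% and 7.04% in heterozygous blood. In bulk blood, fewer cells of a type cannot be told apart from less RNA per cell.

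Many of the S-phase genes were higher in blood carrying the mutant allele, and none was called lower, on the deposited scale. Rescaling to the poly-A spike-ins would place the means of all 37 below wild type in both mutant genotypes. It would do so in homozygous blood for all 18193 genes, whose largest difference there was 1.54 against a subtracted 1.58. Against wild type, 18 of 37 passed the test as higher in homozygous blood, where 10.7% of all 18193 genes did so, and 0 of 37 were lower, where 14.9% of all genes were. In heterozygous blood 19 of 37 passed as higher, where 4.79% of all genes did, and 0 of 37 were lower, where 7.04% of all genes were. A gene passed when its adjusted p from limma, by the Benjamini-Hochberg method over all 45037 probe sets, was under 0.05. At an unadjusted p under 0.05, limma counted 24 of 37 higher in homozygous blood (19.5% of all genes) and 25 of 37 in heterozygous blood (10.8% of all genes). Lower at that threshold were 0 of 37 in either, against 18.1% of all genes in homozygous and 12.6% in heterozygous blood. Both comparisons use the same 3 wild-type arrays, so their calls are not independent of each other.

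The median difference of the 37 genes was 0.23 on the log2 scale in homozygous blood and 0.26 in heterozygous blood, each against wild type. Over all genes the same medians were 0.05 and 0.01. Scaling to 7 reference genes gave 0.20 in homozygous and 0.13 in heterozygous blood, which turned the order of the 2 medians. Of the S-phase genes 14 were called higher in both mutant genotypes, 4 in homozygous blood alone, 5 in heterozygous blood alone and 14 in neither. Being called in one genotype alone does not show a difference between the genotypes, which was tested separately below. All 6 mutant arrays lay above all 3 wild-type arrays for 21 of 37 genes, where this held for 9.31% of all genes. The S-phase genes are brighter than most on this array, with 35 of 37 averaging at least 5 on the log2 scale. Among the 9581 genes that bright, 16.7% were higher and 23.6% lower in homozygous blood, and 7.9% were higher and 11.7% lower in heterozygous blood.

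**Figure D1:**
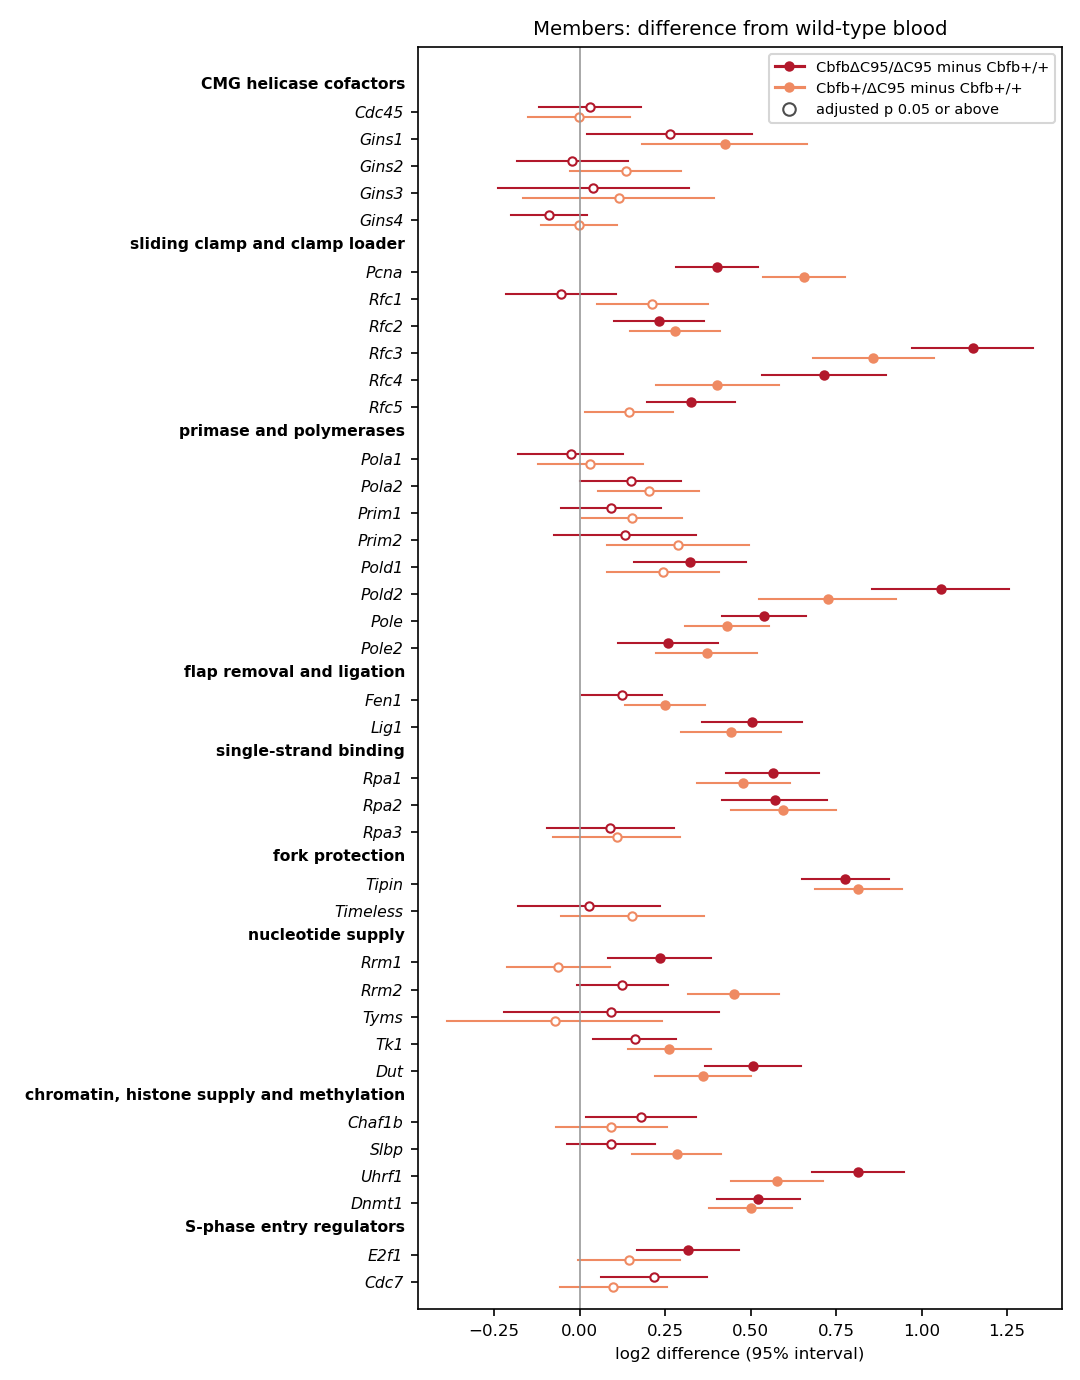
Difference from wild type of each S-phase gene on the log2 scale, for homozygous and heterozygous blood, with 95% confidence intervals from the limma fit; filled points passed an adjusted p of 0.05. The filled points all lie to the right of 0, with Rfc3 and Pold2 farthest out in homozygous blood; rescaling to the poly-A spike-ins would move every homozygous point left by 1.58 and every heterozygous point left by 0.88.

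The promoters of a few of these genes are shown because E2F factors are the textbook activators of S-phase genes, and their binding core can be looked for in the letters. Uhrf1 and Rpa2 were higher in both mutant genotypes and hold a core of the forms searched, given below. Gins3 and Rpa3 did not pass the test in either genotype and also hold such a core. Rfc3 had the largest difference in the set and holds no core of the forms searched. Other forms of the E2F site were not searched. The Rfc3 window does hold tttcgcgc near its 3′ end, letters of the wider E2F form TTTSSCGC, where S is C or G. An E2F site in Rfc3 is therefore not excluded. Each sequence is the 250 bases before a RefSeq transcript start in GRCm38.p6, written 5′ to 3′ along the gene, with the searched cores in capitals. Uhrf1 lies on the plus strand at chr17:56303087-56303336 and has a second promoter without a core of the forms searched. Rpa2 lies on the plus strand at chr4:132768110-132768359, Gins3 on the plus strand at chr8:95633309-95633558, Rpa3 on the minus strand at chr6:8259142-8259391 and Rfc3 on the minus strand at chr5:151651209-151651458.
Uhrf1: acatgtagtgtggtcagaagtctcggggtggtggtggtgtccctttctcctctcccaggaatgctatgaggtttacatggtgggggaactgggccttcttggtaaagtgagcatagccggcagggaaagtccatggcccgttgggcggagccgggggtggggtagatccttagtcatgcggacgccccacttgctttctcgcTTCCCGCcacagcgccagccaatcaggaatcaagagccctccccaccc
Rpa2: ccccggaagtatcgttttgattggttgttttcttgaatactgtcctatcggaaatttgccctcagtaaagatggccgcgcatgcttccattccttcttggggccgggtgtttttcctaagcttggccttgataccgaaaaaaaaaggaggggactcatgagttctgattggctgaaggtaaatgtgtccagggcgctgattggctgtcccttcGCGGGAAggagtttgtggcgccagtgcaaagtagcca
Gins3: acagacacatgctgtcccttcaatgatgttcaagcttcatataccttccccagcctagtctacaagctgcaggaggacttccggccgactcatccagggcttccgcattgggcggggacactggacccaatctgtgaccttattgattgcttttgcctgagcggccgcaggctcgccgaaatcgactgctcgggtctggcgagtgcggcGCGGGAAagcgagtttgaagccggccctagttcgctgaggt
Rpa3: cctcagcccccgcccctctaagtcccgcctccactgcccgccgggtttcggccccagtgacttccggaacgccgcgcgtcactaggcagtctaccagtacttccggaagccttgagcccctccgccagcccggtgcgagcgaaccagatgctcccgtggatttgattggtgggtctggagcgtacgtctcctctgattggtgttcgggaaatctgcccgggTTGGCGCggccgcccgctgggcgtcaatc
Rfc3: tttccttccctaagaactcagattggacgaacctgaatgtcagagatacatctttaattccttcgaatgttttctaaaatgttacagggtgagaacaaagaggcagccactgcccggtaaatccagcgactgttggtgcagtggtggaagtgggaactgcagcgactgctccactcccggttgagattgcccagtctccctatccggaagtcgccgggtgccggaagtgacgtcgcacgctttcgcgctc

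The cores searched were TTCCCGC and TTGGCGC on both strands, so that a core on the minus strand of the gene reads GCGGGAA or GCGCCAA. Promoters were given for 30 of the 37 measured genes, with 38 promoters in all, and Tipin, Gins1, Gins2, Gins4, Pole, Prim2 and Rfc2 were not matched. A core was present in 9 of the 30 genes (30.0%), against 6.45% of all 27025 genes with a promoter in the table. Per promoter the shares were 23.7% of 38 and 5.62% of 32851. Among the matched S-phase genes, such a core was present in 3 of 19 called higher in either mutant genotype and in 6 of 11 called in neither. These counts cover only the forms searched. The wider form given above would add Rfc3 and Dnmt1, both called higher, and it was not counted over the other windows. The counts therefore do not show that the called genes have fewer E2F sites. Whether a window reaches into coding sequence was not checked. The letters CCAAT, searched on both strands as well, were present in 16 of the 30 genes (53.3%), against 37.5% of all genes. In Prim1 the last base of the core is also the first base of a CCAAT. A match in letters is a description of these windows and not a binding site.

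The sliding clamp and its loader had the most members called. PCNA is the ring that holds polymerases on DNA, and the RFC complex opens and closes it. Of these 6 genes, 5 were higher in homozygous and 4 in heterozygous blood, where 10.7% and 4.79% of all genes were. Pcna read 11.08, 10.98 and 11.00 in homozygous arrays, 11.26, 11.28 and 11.28 in heterozygous arrays, and 10.65, 10.61 and 10.59 in wild-type arrays. The 3 genotypes did not overlap, and the heterozygous arrays were the highest. In homozygous blood Pcna was 1.32-fold higher than in wild type (log2 difference 0.40, 95% confidence interval 0.28 to 0.52, adjusted p 0.000173). In heterozygous blood it was 1.58-fold higher than in wild type (log2 difference 0.66, interval 0.54 to 0.78, adjusted p 3.01e-05).

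Rfc3, a small loader subunit, had the largest difference among the 37 genes. It read 6.56, 6.20 and 6.37 in homozygous arrays, 6.11, 6.11 and 6.05 in heterozygous arrays, and 5.28, 5.21 and 5.21 in wild-type arrays. The genotypes did not overlap and lay in the order of the number of mutant copies. Against wild type it was 1.15 ± 0.08 (SE) higher in homozygous blood on the log2 scale, or 2.22-fold, with an adjusted p of 7.64e-07. In heterozygous blood it was 0.86 ± 0.08, or 1.81-fold, with an adjusted p of 6.65e-05. A further probe set of Rfc3 gave smaller differences from wild type, 0.72 in homozygous and 0.47 in heterozygous blood, both called.

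Rfc4 showed the same order of genotypes as Rfc3. It read 7.39, 7.24 and 7.36 in homozygous arrays, 6.98, 6.97 and 7.10 in heterozygous arrays, and 6.43, 6.75 and 6.66 in wild-type arrays. Its difference from wild type was 0.72 ± 0.08 in homozygous blood (adjusted p 4.52e-05) and 0.40 ± 0.08 in heterozygous blood (adjusted p 0.00917). No genotypes overlapped, and smaller differences were found for the other small subunits. Rfc2 differed from wild type by 0.23 in homozygous (adjusted p 0.0163) and 0.28 in heterozygous blood (adjusted p 0.0126). Rfc5 differed by 0.32 in homozygous (adjusted p 0.00154) and 0.14 in heterozygous blood (adjusted p 0.201). The Rfc2 call ended in homozygous blood without wild-type replicate 3 (adjusted p 0.0517) and in heterozygous blood without heterozygous replicate 2 (adjusted p 0.0619). Scaling to reference genes also ended the heterozygous call of Rfc2, at 0.14 (adjusted p 0.103). The large subunit Rfc1 was not called against wild type, at -0.05 in homozygous (adjusted p 0.663) and 0.21 in heterozygous blood (adjusted p 0.118).

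**Figure D2:**
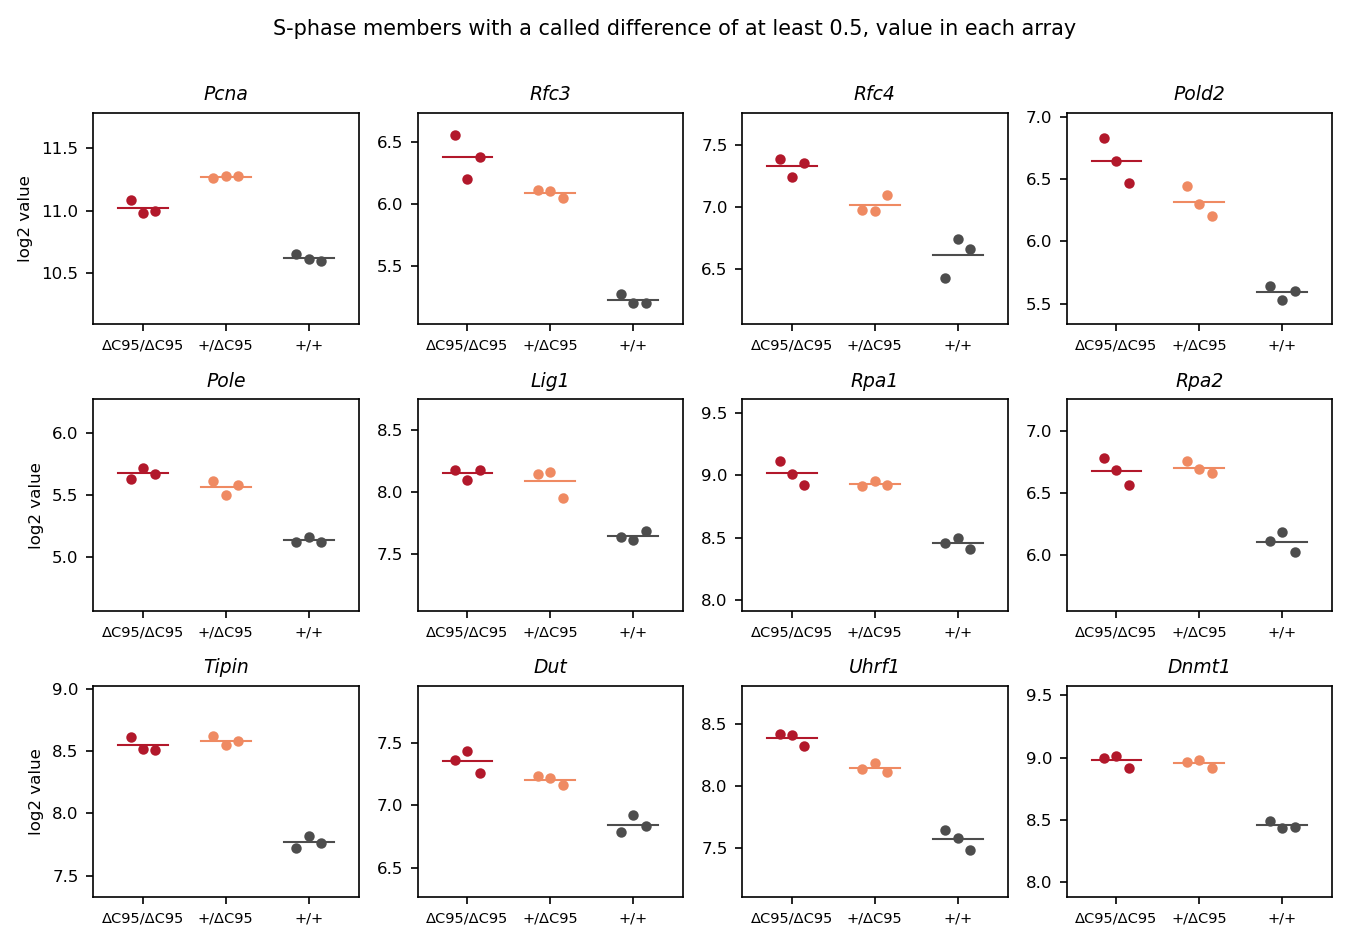
Deposited log2 values of 12 S-phase genes on each of the 9 arrays, with homozygous, heterozygous and wild-type arrays from left to right and a bar at each group mean; every panel spans 1.7 log2 units. In all 12 panels the 6 mutant arrays lie above the 3 wild-type arrays, and the heterozygous arrays of Pcna lie above the homozygous ones. Under poly-A spike-in scaling the mutant means of all 12 would lie below the wild-type mean, with single arrays overlapping. That scaling would place the homozygous mean of every measured gene below wild type.

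Among the polymerases, the genes of delta and epsilon differed and those of the alpha and primase complex were not called. All 4 delta and epsilon genes were higher in homozygous blood and 3 of the 4 in heterozygous blood, against 0 of 4 alpha and primase genes in either. Over all genes 10.7% were higher in homozygous and 4.79% in heterozygous blood. At an unadjusted p under 0.05 in limma, the alpha and primase counts were 1 of 4 in homozygous and 3 of 4 in heterozygous blood, all higher. At that threshold 19.5% of all genes were higher in homozygous and 10.8% in heterozygous blood. Pold2, the small subunit of the lagging-strand polymerase delta, read 6.83, 6.64 and 6.47 in homozygous arrays, 6.44, 6.30 and 6.20 in heterozygous arrays, and 5.64, 5.53 and 5.60 in wild-type arrays. Both mutant genotypes lay clear of wild type. Its difference from wild type was 1.06 ± 0.09, or 2.08-fold, in homozygous blood (adjusted p 4.27e-06) and 0.72 ± 0.09, or 1.65-fold, in heterozygous blood (adjusted p 0.000432). The catalytic subunit Pold1 differed less, by 0.32 in homozygous (adjusted p 0.0086) and 0.24 in heterozygous blood (adjusted p 0.074). Its chosen probe set ends in _x_at, and without such sets Pold1 measured 0.21 in homozygous blood, uncalled (adjusted p 0.0751).

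Pole, the catalytic subunit of the leading-strand polymerase epsilon, read 5.63, 5.71 and 5.67 in homozygous arrays, 5.61, 5.50 and 5.58 in heterozygous arrays, and 5.12, 5.16 and 5.12 in wild-type arrays. The mutant arrays overlapped neither with wild type nor with each other. Pole was above wild type by 0.54 ± 0.06 in homozygous blood (adjusted p 1.93e-05) and 0.43 ± 0.06 in heterozygous blood (adjusted p 0.000542). Its partner Pole2 differed by 0.26 in homozygous (adjusted p 0.0163) and 0.37 in heterozygous blood (adjusted p 0.00425), and its homozygous call ended without homozygous replicate 2 or 3 or wild-type replicate 1 or 2 (adjusted p 0.0508 to 0.0618). In the alpha and primase complex, Pola1, the catalytic subunit, differed from wild type by -0.03 in homozygous and 0.03 in heterozygous blood, with adjusted p-values of 0.833 and 0.882. The 95% intervals for Pola1 ran from -0.18 to 0.13 and from -0.12 to 0.18, so a difference as large as that of Pole lies outside both. Pola2 differed by 0.15 and 0.20, Prim1 by 0.09 and 0.15, and Prim2 by 0.13 and 0.29 in homozygous and heterozygous blood, none of them called. A dimmer probe set of Prim1 was called in homozygous blood, at 0.35 with an adjusted p of 0.013.

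Of the enzymes that finish the lagging strand, Lig1 seals nicks and Fen1 trims flaps. Lig1 read 8.18, 8.10 and 8.18 in homozygous arrays, 8.15, 8.16 and 7.96 in heterozygous arrays, and 7.64, 7.61 and 7.69 in wild-type arrays. The mutant genotypes overlapped with each other and lay above wild type. Lig1 was above wild type by 0.50 ± 0.07 in homozygous blood (adjusted p 0.000139) and 0.44 ± 0.07 in heterozygous blood (adjusted p 0.00141). Fen1 was called in heterozygous blood, at 0.25 with an adjusted p of 0.0114, and measured 0.12 in homozygous blood with an adjusted p of 0.136. Without wild-type replicate 3 the heterozygous call of Fen1 ended, at an adjusted p of 0.0512. Scaling to reference genes ended it as well, at 0.12 with an adjusted p of 0.177.

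RPA coats single-stranded DNA at the fork, and its larger subunits, Rpa1 and Rpa2, were higher in both mutant genotypes. Rpa1 read 9.12, 9.01 and 8.93 in homozygous arrays, 8.92, 8.95 and 8.92 in heterozygous arrays, and 8.46, 8.50 and 8.41 in wild-type arrays. Rpa2 read 6.78, 6.68 and 6.57 in homozygous arrays, 6.76, 6.70 and 6.66 in heterozygous arrays, and 6.11, 6.19 and 6.02 in wild-type arrays. For both genes the 2 mutant genotypes overlapped and lay above wild type. Rpa1 differed from wild type by 0.56 ± 0.06 in homozygous (adjusted p 2.97e-05) and 0.48 ± 0.06 in heterozygous blood (adjusted p 0.000513). Rpa2 differed by 0.57 ± 0.07 in homozygous (adjusted p 7.61e-05) and 0.60 ± 0.07 in heterozygous blood (adjusted p 0.000282). Rpa3, the smallest subunit, measured 0.09 in homozygous (95% interval -0.10 to 0.27) and 0.11 in heterozygous blood (-0.08 to 0.29), and neither was called.

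Tipin and Timeless encode partners that stabilise the fork. Tipin read 8.61, 8.51 and 8.51 in homozygous arrays, 8.63, 8.55 and 8.58 in heterozygous arrays, and 7.72, 7.82 and 7.76 in wild-type arrays. The mutant genotypes overlapped with each other and both stood well above wild type. Tipin was 1.71-fold higher in homozygous blood (log2 difference 0.78 ± 0.06, adjusted p 1.31e-06) and 1.76-fold higher in heterozygous blood (0.81 ± 0.06, adjusted p 1.2e-05), each against wild type. Timeless was not called by its chosen probe set, at 0.03 in homozygous and 0.15 in heterozygous blood. Its other probe set, averaging 4.06 in homozygous and 4.44 in wild-type blood, was called lower in homozygous blood, at -0.37 with an adjusted p of 0.008.

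The GINS subunits and Cdc45, which complete the replicative helicase, showed few differences. Gins1 was the single member called, in heterozygous blood. It read 5.78, 5.58 and 5.26 in homozygous arrays, 5.69, 5.72 and 5.70 in heterozygous arrays, and 5.22, 5.41 and 5.20 in wild-type arrays. The heterozygous arrays lay together above wild type, while the homozygous arrays were spread across both. Gins1 differed from wild type by 0.26 ± 0.11 in homozygous (adjusted p 0.125) and by 0.42 ± 0.11 in heterozygous blood (adjusted p 0.0337). The heterozygous call ended without any 1 of the heterozygous arrays, or without wild-type replicate 1 or 3, at adjusted p-values of 0.087 to 0.125. It also ended under scaling to reference genes, at 0.29 with an adjusted p of 0.0607. The differences of Gins2, Gins3 and Gins4 lay between -0.09 and 0.13 across both mutant genotypes. For Cdc45 the probe sets disagreed. The brighter one measured 0.03 in homozygous and 0.00 in heterozygous blood, uncalled, and the other measured 0.50 and 0.35, both called higher.

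The enzymes of nucleotide supply did not move as a unit. Ribonucleotide reductase makes deoxynucleotides from a large subunit, Rrm1, and a small one, Rrm2. Rrm1 read 8.59, 8.35 and 8.39 in homozygous arrays, 8.11, 8.16 and 8.18 in heterozygous arrays, and 8.21, 8.19 and 8.23 in wild-type arrays. Rrm2 read 9.13, 9.02 and 8.96 in homozygous arrays, 9.38, 9.40 and 9.31 in heterozygous arrays, and 8.93, 8.90 and 8.91 in wild-type arrays. The large subunit was thus highest in homozygous blood and the small subunit in heterozygous blood, without overlap between those 2 genotypes for either gene. Rrm1 was called in homozygous blood at 0.23 ± 0.07 (adjusted p 0.0321) and measured -0.06 ± 0.07 in heterozygous blood (adjusted p 0.72). Rrm2 was called in heterozygous blood at 0.45 ± 0.06 (adjusted p 0.000671) and measured 0.12 ± 0.06 in homozygous blood (adjusted p 0.188). The call of Rrm1 ended without homozygous replicate 1 or any 1 wild-type array (adjusted p 0.0701 to 0.0967). That of Rrm2, whose chosen probe set ends in _x_at, ended when such sets were left out, at 0.19 in heterozygous blood with an adjusted p of 0.0696.

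Dut, which keeps uracil out of DNA, was higher in both mutant genotypes. It read 7.36, 7.43 and 7.26 in homozygous arrays, 7.24, 7.22 and 7.16 in heterozygous arrays, and 6.79, 6.92 and 6.83 in wild-type arrays. Dut was above wild type by 0.51 ± 0.06 in homozygous (adjusted p 9.4e-05) and 0.36 ± 0.06 in heterozygous blood (adjusted p 0.00387). No genotypes of Dut overlapped. The thymidine kinase Tk1 was called in heterozygous blood at 0.26 (adjusted p 0.0111) and measured 0.16 in homozygous blood (adjusted p 0.0638). The call ended without heterozygous replicate 2 (adjusted p 0.0512) or wild-type replicate 3 (0.0536), and under scaling to reference genes, at 0.13 (0.144). Tyms, thymidylate synthase, was dim on all 4 of its own probe sets, and the chosen one averaged 3.03 in homozygous, 2.87 in heterozygous and 2.94 in wild-type blood. A probe set that Tyms shares with another gene was not used.

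Uhrf1 and Dnmt1, which copy DNA methylation onto the new strand, were both higher. Uhrf1, which recognises hemimethylated DNA, read 8.42, 8.41 and 8.32 in homozygous arrays, 8.14, 8.19 and 8.12 in heterozygous arrays, and 7.65, 7.58 and 7.49 in wild-type arrays. Its genotypes did not overlap and lay in the order of mutant copies. Uhrf1 differed from wild type by 0.81 ± 0.06, or 1.76-fold, in homozygous (adjusted p 1.45e-06) and by 0.58 ± 0.06, or 1.49-fold, in heterozygous blood (adjusted p 0.000154). Dnmt1, the maintenance methyltransferase, read 9.00, 9.02 and 8.92 in homozygous arrays, 8.96, 8.98 and 8.92 in heterozygous arrays, and 8.49, 8.44 and 8.44 in wild-type arrays. Here the mutant genotypes overlapped, at 0.52 ± 0.06 in homozygous (adjusted p 2.26e-05) and 0.50 ± 0.06 in heterozygous blood (adjusted p 0.000203) above wild type. Without probe sets ending in _x_at or _s_at, Dnmt1 measured 0.21 in heterozygous blood with an adjusted p of 0.052.

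Slbp, which binds the stem-loop of histone mRNA, was called in heterozygous blood at 0.28 (adjusted p 0.0101) and measured 0.09 in homozygous blood (adjusted p 0.325). Scaling to reference genes ended that call, at 0.15 with an adjusted p of 0.0878. Chaf1b, a subunit of the histone chaperone that follows PCNA, measured 0.18 in homozygous and 0.09 in heterozygous blood and was not called. Of the regulators of S-phase entry, the transcription factor E2f1 read 7.35, 7.22 and 7.26 in homozygous arrays, 7.07, 7.07 and 7.17 in heterozygous arrays, and 6.86, 7.06 and 6.96 in wild-type arrays. The homozygous arrays stood apart, and heterozygous and wild-type arrays nearly met. E2f1 was called in homozygous blood at 0.32 ± 0.07 (adjusted p 0.00519) and measured 0.14 ± 0.07 in heterozygous blood (adjusted p 0.283). Cdc7, the kinase that fires origins, measured 0.22 in homozygous (adjusted p 0.0521) and 0.10 in heterozygous blood (adjusted p 0.54).

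The mutant genotypes were then compared with each other. Between homozygous and heterozygous blood, 5 of 37 genes were higher, where 5.38% of all genes were, and 3 of 37 were lower, where 10.4% of all genes were. The higher ones were Rfc3 (log2 difference 0.29, adjusted p 0.0358), Rfc4 (0.31, 0.0285), Pold2 (0.33, 0.0352), Rrm1 (0.30, 0.0146) and Uhrf1 (0.24, 0.026). The lower ones were Pcna (-0.25, adjusted p 0.00924), Rfc1 (-0.27, 0.0355) and Rrm2 (-0.33, 0.00367). The 8 calls therefore fall on both sides, also within the clamp loader, where Rfc3 and Rfc4 were higher and Rfc1 lower in homozygous blood. Counts of this size rest on single arrays. The total was 3 without heterozygous replicate 1 or 2, 4 without heterozygous replicate 3, and 5 without homozygous replicate 1 or 3 or any 1 wild-type array. None of the 8 calls held under every alternative. That of Pcna ended under scaling to 7 reference genes alone (-0.15, adjusted p 0.0729), and that of Rrm2 without probe sets ending in _x_at or _s_at alone (-0.18, adjusted p 0.0595).

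**Figure D3:**
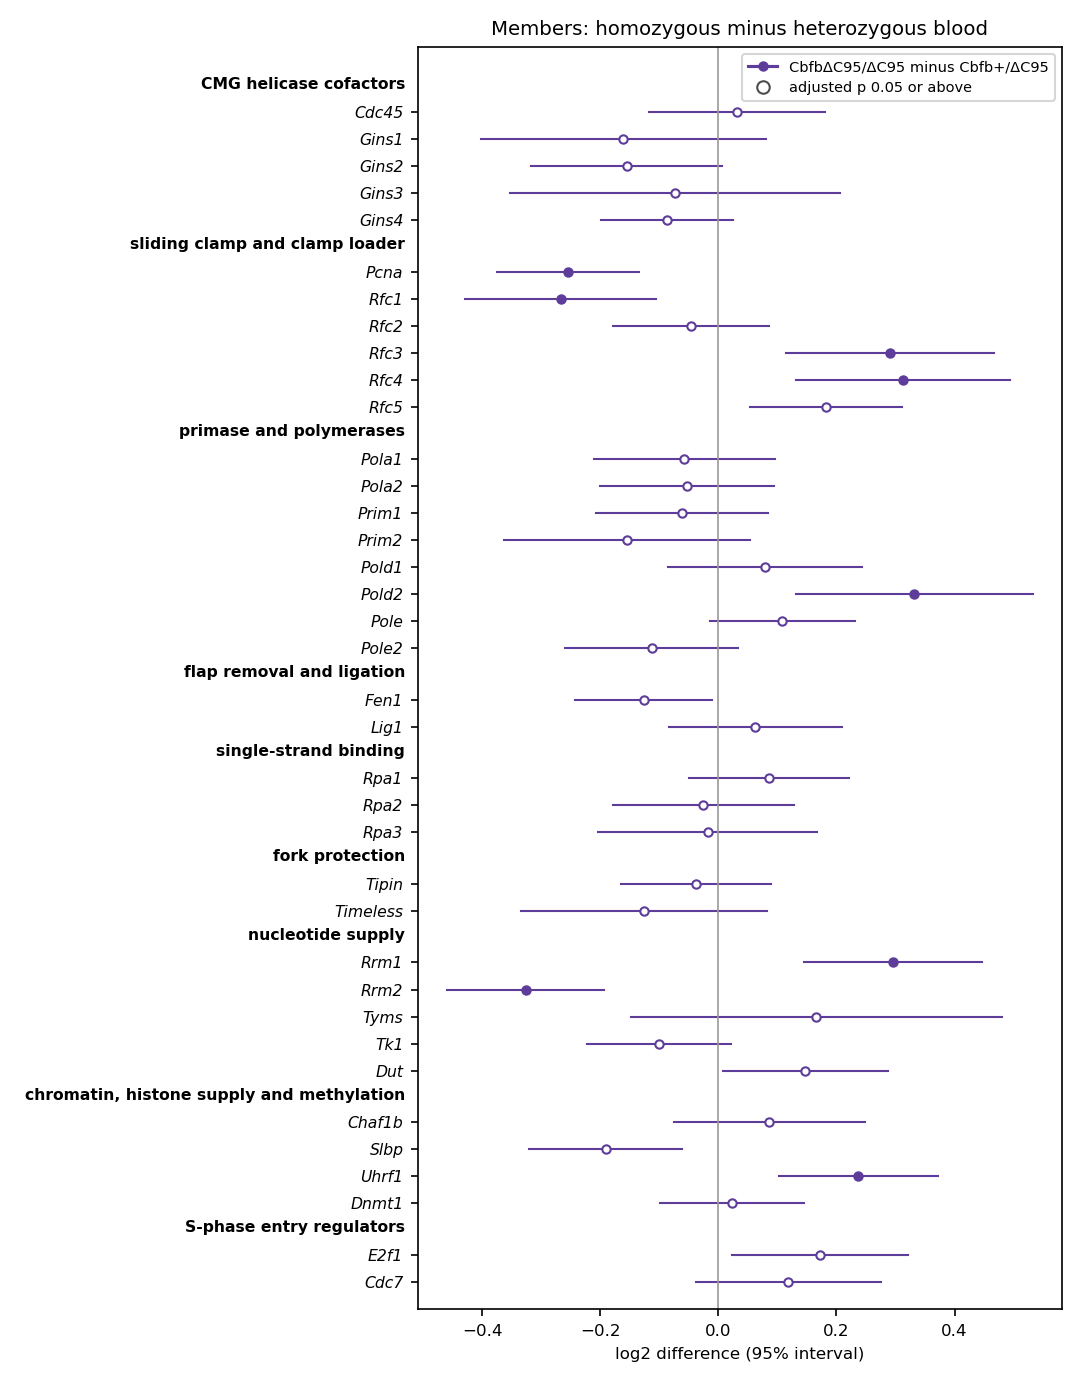
Difference between homozygous and heterozygous blood for each S-phase gene on the log2 scale, with 95% confidence intervals from the limma fit; filled points passed an adjusted p of 0.05. The 5 filled points right of 0 are Rfc3, Rfc4, Pold2, Rrm1 and Uhrf1, and the 3 left of 0 are Pcna, Rfc1 and Rrm2; poly-A spike-in scaling would move every point left by 0.70 and place all 37 below 0.

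Whether 1 mutant copy gave the midpoint of 0 and 2 copies was tested in the same fit. Heterozygous blood lay above the midpoint of homozygous and wild-type blood for 9 of 37 genes, where 3.64% of all genes did, and below it for 0 of 37, where 1.53% did. At an unadjusted p under 0.05 in limma, 20 of 37 lay above, where 10.4% of all genes did, and 1 of 37 below, where 8.4% did. The largest excess was that of Pcna, at 0.46 above the midpoint (adjusted p 0.000215). Tipin followed at 0.43 (adjusted p 0.000557) and Rrm2 at 0.39 (adjusted p 0.00142). The others were Rpa2, Rfc3, Pole2, Dnmt1, Slbp and Fen1, at 0.19 to 0.31. Among the alternatives other than poly-A scaling, Pcna and Tipin were above the midpoint in each. Dnmt1 lost its excess when probe sets whose names end in _x_at or _s_at were left out, at -0.03 with an adjusted p of 0.859. The count was 3 without heterozygous replicate 1 or 2, and 5 without wild-type replicate 1 or 2. Of the 23 genes called against wild type in either genotype, 12 had means in the order homozygous, heterozygous, wild type, 10 had heterozygous blood highest with wild type lowest, and Rrm1 had heterozygous blood lowest.

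Genes that work beside the S-phase set were counted in the same way. Replication licensing loads the MCM ring before S phase. Of its 15 genes, 8 (53.3%) were higher and 1 (6.67%) lower in homozygous blood, where 10.7% and 14.9% of all genes were. In heterozygous blood 8 of 15 (53.3%) were higher and 1 (6.67%) lower, where 4.79% and 7.04% of all genes were. The MCM loader Cdt1 differed from wild type by 1.21 in homozygous and 1.43 in heterozygous blood, and its partner Cdc6 by 1.36 and 1.23. The helicase ring genes Mcm5 and Mcm6 differed by 1.21 and 0.70 in homozygous blood, and by 1.07 and 1.03 in heterozygous blood. All 4 were called in both genotypes, and the median over the 15 genes was 0.36 in homozygous and 0.41 in heterozygous blood.

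Of further fork proteins, 6 of 22 (27.3%) were higher and 3 (13.6%) lower in homozygous blood, where 10.7% and 14.9% of all genes were. In heterozygous blood 4 of 22 (18.2%) were higher and 1 (4.55%) lower, where 4.79% and 7.04% of all genes were. Rnaseh2a, the catalytic subunit of the enzyme that removes ribonucleotides, was 0.83 higher in homozygous and 0.35 higher in heterozygous blood. Dscc1, part of an alternative clamp loader, was 0.53 and 0.57 higher, the heterozygous call ending without wild-type replicate 1 or 3, and Pole4, an accessory subunit of polymerase epsilon, 0.48 higher in homozygous blood and 0.19, uncalled, in heterozygous blood. Top1, which relaxes DNA ahead of the fork, was 1.36 lower in homozygous and 0.33 lower in heterozygous blood by its brightest probe set. Over all probe sets of Top1 the mean difference was -0.46 in homozygous blood, still called, and -0.11 in heterozygous blood, uncalled (adjusted p 0.196).

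Among further nucleotide enzymes 7 of 17 (41.2%) were higher and 3 (17.6%) lower in homozygous blood, where 10.7% and 14.9% of all genes were. In heterozygous blood 8 of 17 (47.1%) were higher and 1 (5.88%) lower, where 4.79% and 7.04% of all genes were. The purine synthesis genes Gart and Atic were higher by 0.89 and 0.87 in homozygous blood and by 0.53 and 0.72 in heterozygous blood. The CTP synthetase Ctps was higher by 0.62 in homozygous and 0.55 in heterozygous blood, while its paralogue Ctps2 measured -1.04 in homozygous blood, called lower, and -0.30 in heterozygous blood, uncalled (adjusted p 0.0531). Further histone chaperones and remodellers had 3 of 8 higher and 3 lower in homozygous blood. In heterozygous blood 0 of 8 were higher and 1 lower. At an unadjusted p under 0.05 in limma, 2 of 8 were higher and 2 lower there, where 10.8% and 12.6% of all genes were. In that list Hells, a remodeller needed for DNA methylation, measured -1.29 in homozygous and -0.50 in heterozygous blood, both called, although Uhrf1 and Dnmt1 were higher. Asf1a, a histone H3-H4 chaperone, measured -0.56 in homozygous blood, called lower, and the histone-binding Rbbp4 and the histone acetyltransferase Hat1 were higher there by 0.35 and 0.26. The call of Hat1 ended without any 1 array other than homozygous replicate 2.

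Of the E2F factors and S-phase kinases, 0 of 17 were higher and 6 (35.3%) lower in homozygous blood, where 10.7% and 14.9% of all genes were. In heterozygous blood 2 (11.8%) were higher and 4 (23.5%) lower, where 4.79% and 7.04% of all genes were. At an unadjusted p under 0.05 in limma, 3 of 17 were higher in homozygous blood, where 19.5% of all genes were. Tfdp2, a dimerisation partner of E2F, was 1.12 lower in homozygous and 0.83 lower in heterozygous blood. Dbf4, the activating subunit of the Cdc7 kinase, was 0.82 and 0.35 lower, beside the uncalled 0.22 and 0.10 of Cdc7 itself. The heterozygous call of Dbf4 ended without heterozygous replicate 2 or 3 or wild-type replicate 2 or 3, and its probe sets averaged -0.08 there. E2f7, an E2F repressor, was 0.48 higher in heterozygous blood and measured 0.06 in homozygous blood. E2f5, called lower in both, turned to 0.17 and 0.09 without probe sets ending in _x_at or _s_at, uncalled in either genotype.

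Genes of mitosis and the spindle act after S phase. In homozygous blood 1 of 20 (5%) was higher and 11 (55%) were lower, where 10.7% and 14.9% of all genes were. In heterozygous blood 0 of 20 were higher and 10 (50%) lower, where 4.79% and 7.04% of all genes were. At an unadjusted p under 0.05 in limma, 1 of 20 was higher in heterozygous blood, where 10.8% of all genes were. Their median differences were -0.24 in homozygous and -0.26 in heterozygous blood, against 0.23 and 0.26 for the S-phase genes. The spindle protein Nusap1 was 0.94 lower in homozygous and 0.81 lower in heterozygous blood, and the kinetochore motor Cenpe 0.75 and 0.55 lower. Prc1, which bundles the central spindle, was 0.68 and 0.35 lower, and the spindle motor Kif11 0.66 and 0.39 lower, the heterozygous call ending without wild-type replicate 2. The difference between the lists was not tested.

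**Figure D4:**
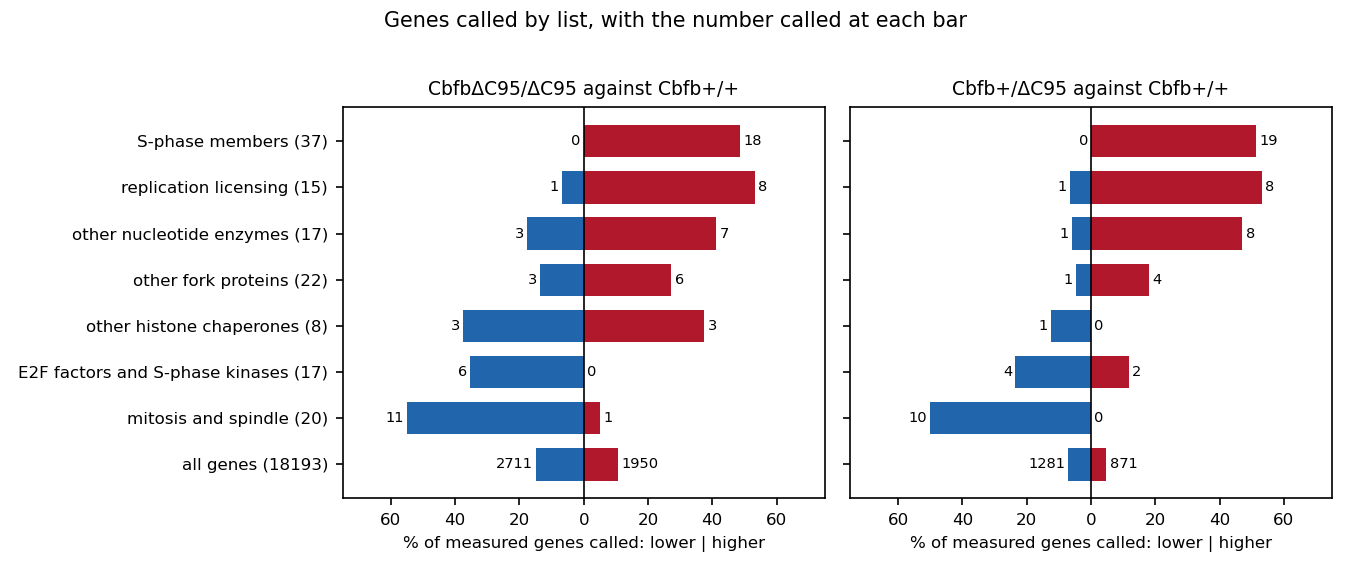
Share of the measured genes of each list that passed an adjusted p of 0.05 as higher or lower than wild type, in homozygous and heterozygous blood, beside the share over all genes. S-phase genes have 18 of 37 higher in homozygous and 19 of 37 in heterozygous blood and 0 lower, and mitosis and spindle genes have 11 of 20 and 10 of 20 lower. Rescaling to the poly-A spike-ins would leave 0 S-phase genes higher, with 37 of 37 lower in homozygous and 34 of 37 lower in heterozygous blood. That rescaling lowers every gene by the same amount, so these counts are not particular to the S-phase genes.

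Several other measured quantities also differed by genotype, not all in the pattern of the S-phase genes. The macrophage, megakaryocyte and platelet sums given above stood below wild type in homozygous blood, and in heterozygous blood the macrophage sum was below and the megakaryocyte sum above wild type. Neural markers were higher in both mutant genotypes for 3 of 6 genes, and summed to 216 to 234 in homozygous, 229.8 to 265 in heterozygous and 167 to 179.6 in wild-type arrays. The part of these markers in the S-phase differences was not tested. The poly-A spike-ins, control transcripts added to RNA before labelling, averaged 11.96 ± 0.02 in homozygous, 11.26 ± 0.00 in heterozygous and 10.38 ± 0.02 in wild-type arrays (SD, n = 3 each, over 24 probe sets). Setting their means equal would subtract 1.58 from every homozygous difference and 0.88 from every heterozygous difference. On that scale all 37 S-phase genes would be called lower in homozygous blood and 34 lower in heterozygous blood. These counts follow from the constant subtracted from every gene, and the share over all genes was not counted. The statements above are therefore relative to the bulk of genes on each array. The 7 reference genes moved the heterozygous differences by -0.13 and the homozygous ones by -0.03. The hybridization controls (18 probe sets) averaged 10.60 ± 0.07 in homozygous, 10.32 ± 0.04 in heterozygous and 10.32 ± 0.01 in wild-type arrays (SD). Spike-in levels went with genotype, so differences in preparation of the samples cannot be told apart from genotype here.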

How the data were processed

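Total RNA of pooled peripheral blood was extracted with RNA-STAT and biotin-labelled with the maker's one-cycle method, per the labels' protocols, and read on 9 arrays, 3 per genotype. The authors deposited 1 table of values, taken here as log2, running from 1.49 to 14.56; the scale is inferred from these limits and from the mention of RMA. Software listed in the submitters' processing notes, with no role given, was Partek 6.5, RMA and Affymetrix Expression Console 1.0. RMA, as a method, makes the distributions of the arrays alike, so a uniform difference in RNA content is removed. Detection calls were not used here.

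The 64 control probe sets were left out of the tests, leaving 45037, of which 34945 were assigned to 1 gene, 932 to several and 9160 to none. Of the symbols, 34741 matched RefSeq of GRCm38.p6 by Entrez identifier and 0 changed. Genotype came from the titles. A linear model over all 9 arrays was fitted in R 4.3.3 by lmFit, contrasts.fit and eBayes of limma 3.58.1, 2-sided, with Benjamini-Hochberg adjustment over 45037 probe sets, and was tested on simulated data. The members, roles, pathway lists and cell type lists were chosen with earlier results of these data known. All members are named; values by array are given for those with a called difference of at least 0.5 and, chosen after their values were seen, for Gins1, Rrm1, Rrm2 and E2f1; from each pathway list up to 4 called genes with the largest difference are named. Promoter letters are RefSeq's, 250 bases before a start. Figures were drawn with matplotlib 3.10.9. Alternatives were other fits, normalizations, scalings, probe set choices, filters and leaving out each array. A sign change counts as a reversal where the value was called in either setting. The share among genes averaging at least 5 was added after seeing the data.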

Additional observations from a re-analysis of the deposited data

How the results depend on the processing

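With poly-A scaling set aside, every called S-phase gene kept its direction against wild type under the alternatives run, and 14 of the 18 homozygous calls and 10 of the 19 heterozygous calls held under each of them. Under poly-A spike-in scaling 37 members were called against wild type in homozygous blood with a median of -1.35, and 34 in heterozygous blood with a median of -0.62. The same scaling called 37 between homozygous and heterozygous blood, with a median of -0.72, and 5 against the midpoint. Calls between homozygous and heterozygous blood numbered 5 with only those arrays fitted and 2 at an adjusted p under 0.01, against 8. Calls against the midpoint numbered 16 with an intensity trend, 5 under reference gene scaling and 3 at an adjusted p under 0.01, against 9. The homozygous median against wild type, 0.23, was 0.29 after quantile normalization and 0.17 with the mean of all probe sets of a gene. The heterozygous median, 0.26, was 0.13 under reference gene scaling. Among the S-phase genes, that scaling ended the heterozygous calls of Gins1, Rfc2, Fen1, Tk1 and Slbp. It also ended the homozygous calls of Pole2 and Rrm1. The median between homozygous and heterozygous blood, -0.025, turned to 0.021 after quantile normalization, 0.077 under reference gene scaling and 0.030 without homozygous replicate 3. The cause of these changes was not tested, apart from the spike-in and reference gene scalings, which subtract a constant by construction. Leaving out each array gave 16 to 19 homozygous calls, 16 to 20 heterozygous calls, 3 to 6 calls between them and 3 to 12 against the midpoint. The medians then ran from 0.19 to 0.25, from 0.24 to 0.28 and from -0.041 to 0.030. E2f5 turned to 0.17 in homozygous and 0.093 in heterozygous blood, and the midpoint excess of Dnmt1 to -0.028, without probe sets ending in _x_at or _s_at. With the replicate number as a block, calls numbered 19 in homozygous blood, 19 in heterozygous blood, 8 between them and 6 against the midpoint. Deviations of arrays sharing a number correlated at -0.02 to 0.07, and those of arrays with different numbers at -0.06 to 0.03. Such small values cannot settle whether the numbers pair the arrays. Small differences of dim genes such as Tyms are limited by signal over background, which is unknown here.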

Other observations

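Markers of tissues other than blood were also measured. Over all genes, 10.7% were higher and 14.9% lower in homozygous blood, and 4.79% and 7.04% in heterozygous blood. Liver and visceral endoderm markers summed to 879 to 946 in homozygous, 421 to 455 in heterozygous and 534 to 540 in wild-type arrays, with 5 of 7 called higher in homozygous blood and 1 of 7 lower in heterozygous blood. Mesenchyme markers summed to 269 to 288 in homozygous, 511 to 540 in heterozygous and 397 to 403 in wild-type arrays, with 5 of 7 lower in homozygous blood and 2 of 7 higher in heterozygous blood. Progenitor markers were lower for 3 of 6 in homozygous and 2 of 6 in heterozygous blood, with Myb, a transcription factor of definitive progenitors, at 3.41 in homozygous, 4.19 in heterozygous and 5.39 in wild-type blood. Neutrophil markers were lower for 3 of 8 in homozygous and 4 of 8 in heterozygous blood. Lymphoid markers were higher for 1 of 7 in homozygous blood and not called in heterozygous blood, and the 6 endothelial markers were not called in either. The part of these markers in the S-phase differences was not tested.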
